A study of Mus musculus with 69 samples.

Results

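The genes of the EGF receptor system described here are 6 ligands (Hbegf, Epgn, Ereg, Areg, Tgfa and Btc) and 3 receptors (Egfr, Erbb2 and Erbb3). They were taken by gene symbol from the array's annotation, using probe sets that carry 1 symbol and, for each gene, the probe set with the highest mean. Of the 9 genes, 8 were measured, out of 18820 genes in all, and each had 1 such probe set. The annotation used here lists no probe set with Areg as its 1 symbol, so amphiregulin was not analysed here. The measured genes comprised 5 ligands and 3 receptors. Their mean levels lay between the 74.1 percentile (Btc) and the 95.0 percentile (Egfr) of all genes.

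RNA from mouse dorsal skin painted with TPA, an inflammatory phorbol ester and protein kinase C activator, was measured on 69 Affymetrix arrays, of which 66 could be assigned to a group. The treated groups were FVB, an inbred laboratory strain, at 2, 6, 12, 24, 48, 72, 168 and 1008 h, with 3 arrays each. F1, the FVB/N x Spret/Ei cross, was sampled at 4, 6, 12, 24 and 72 h with 2 arrays per time, at 48 h with 3 arrays and at 1008 h with 6 arrays. Its 2 and 168 h groups are single arrays. SPR, the wild-derived Spret/Ei, was sampled at 4, 12, 24, 48 and 1008 h with 2 arrays per time, and its 2 and 6 h groups are single arrays. Each strain was compared with its own untreated skin at 0 h, with 3 arrays for FVB, 4 for F1 and 2 for SPR. Mice were 8 weeks old, were shaved 2 days before treatment and, per the labels, got a single dose, although the design text speaks of replicate exposure and the protocol does not list 12 or 1008 h. Vehicle-treated skin is not among the arrays used, and TPA, acetone, shaving and, at 1008 h, age cannot be told apart. The labels do not say whether replicate arrays hold different mice, so p-values reflect only how arrays spread, which may be technical. In whole skin, fewer cells of a type and less RNA per cell cannot be told apart.

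The ligands are made as membrane-anchored precursors, cut off by metalloproteases, and bind EGFR on the same or nearby cells. Bound EGFR pairs with itself or with ErbB2, which has no known ligand, or with ErbB3, whose kinase is weak and which docks PI3 kinase. The pathway drives keratinocyte growth and migration. HB-EGF, epiregulin, TGF-alpha and betacellulin are well known from skin, and epigen is a later addition to the family. The labelled tissue matched its markers: Krt5 and Krt14 of basal keratinocytes averaged 12.22 and 12.04, and Krt1 and Krt10 of suprabasal keratinocytes 12.17 and 12.13 (log2, mean of 66 arrays).

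Sequences before the start of transcription are shown for 3 ligands, Epgn and Tgfa, which were higher early after TPA, and Btc, which was lower from 6 h. They are RefSeq windows of the GRCm38.p6 build, 250 bases before to 50 after the gene's start. Epgn lies at chr5:91027267-91027566 (plus strand), Tgfa at chr6:86194972-86195271 (plus strand) and Btc at chr5:91402945-91403244 (minus strand). Capitals mark the motif matches found. Epgn and Btc lie on the same stretch of chromosome 5.
Epgn: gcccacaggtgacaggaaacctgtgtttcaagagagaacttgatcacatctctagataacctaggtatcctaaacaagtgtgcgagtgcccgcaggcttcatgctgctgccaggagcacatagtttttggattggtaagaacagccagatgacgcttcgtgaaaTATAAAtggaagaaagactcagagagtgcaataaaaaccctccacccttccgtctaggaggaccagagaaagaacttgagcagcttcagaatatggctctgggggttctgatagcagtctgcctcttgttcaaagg
Tgfa: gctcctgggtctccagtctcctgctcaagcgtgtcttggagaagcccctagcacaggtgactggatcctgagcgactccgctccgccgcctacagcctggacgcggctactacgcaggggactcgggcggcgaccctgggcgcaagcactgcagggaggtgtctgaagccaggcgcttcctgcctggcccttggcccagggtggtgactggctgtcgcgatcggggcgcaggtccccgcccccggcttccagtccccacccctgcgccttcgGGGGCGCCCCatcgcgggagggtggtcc
Btc: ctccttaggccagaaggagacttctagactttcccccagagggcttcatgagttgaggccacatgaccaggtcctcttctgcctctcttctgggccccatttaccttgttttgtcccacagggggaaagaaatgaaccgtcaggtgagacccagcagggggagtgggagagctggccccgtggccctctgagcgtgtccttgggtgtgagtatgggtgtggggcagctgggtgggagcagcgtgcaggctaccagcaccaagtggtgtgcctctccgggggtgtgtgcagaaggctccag

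Both strands of the windows of Epgn, Tgfa, Btc, Egfr and Erbb2 were searched for the AP-1 motif TGANTCA, the CRE motif TGACGTCA, the TATA box TATAAA, the CArG box and the NF-kappaB site. Epgn held 1 TATA box, 86 bases before the start, and Tgfa 1 NF-kappaB site, 22 bases after it. The other 3 windows held none of the 5 motifs. Of all 32851 windows of the same length, 13.6% held the TATA box, 8.46% the NF-kappaB site, 7.81% the AP-1 motif, 1.79% the CRE motif and 1.63% the CArG box. GC content was 47.3% for Epgn, 70.7% for Tgfa, 60.3% for Btc, 62.3% for Egfr and 66% for Erbb2, against a median of 52.7% over all windows. A match is a match of letters and was not tested as a binding site.

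In FVB skin, 4 of the 5 ligands were several-fold higher within 2 h of TPA, while Btc did not pass the test there and fell from 6 h. Genes count as called where limma gave an adjusted p under 0.05 (Benjamini-Hochberg, over all genes) and the log2 change was at least 1 in size. Where treated arrays are said to lie wholly above or below the controls, the share of all genes doing so is not given. At 2 h, 4 of the 8 genes were called, all higher, against 6.68% of all genes called in either direction and 3.6% called higher. At 6 h, 5 were called (12.3% of all genes), and at 12 h, 5 (10.4%). At 24 h, 4 were called (5.48%), and at 48 h, 2 (5.95%). None was called at 72 h (1.88%), where 2 had an unadjusted p under 0.05, or at 168 h (0.383%), where it was 3. At 1008 h, 4 were called again (8.14%). All called genes of the 8 in FVB were ligands, and whether ligands and receptors differ in this was not tested. The median log2 change of the 8 genes was 1.5 at 2 h and 1.25 at 6 h, against 0.02 and 0.00 for all genes.

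**Figure D1:**
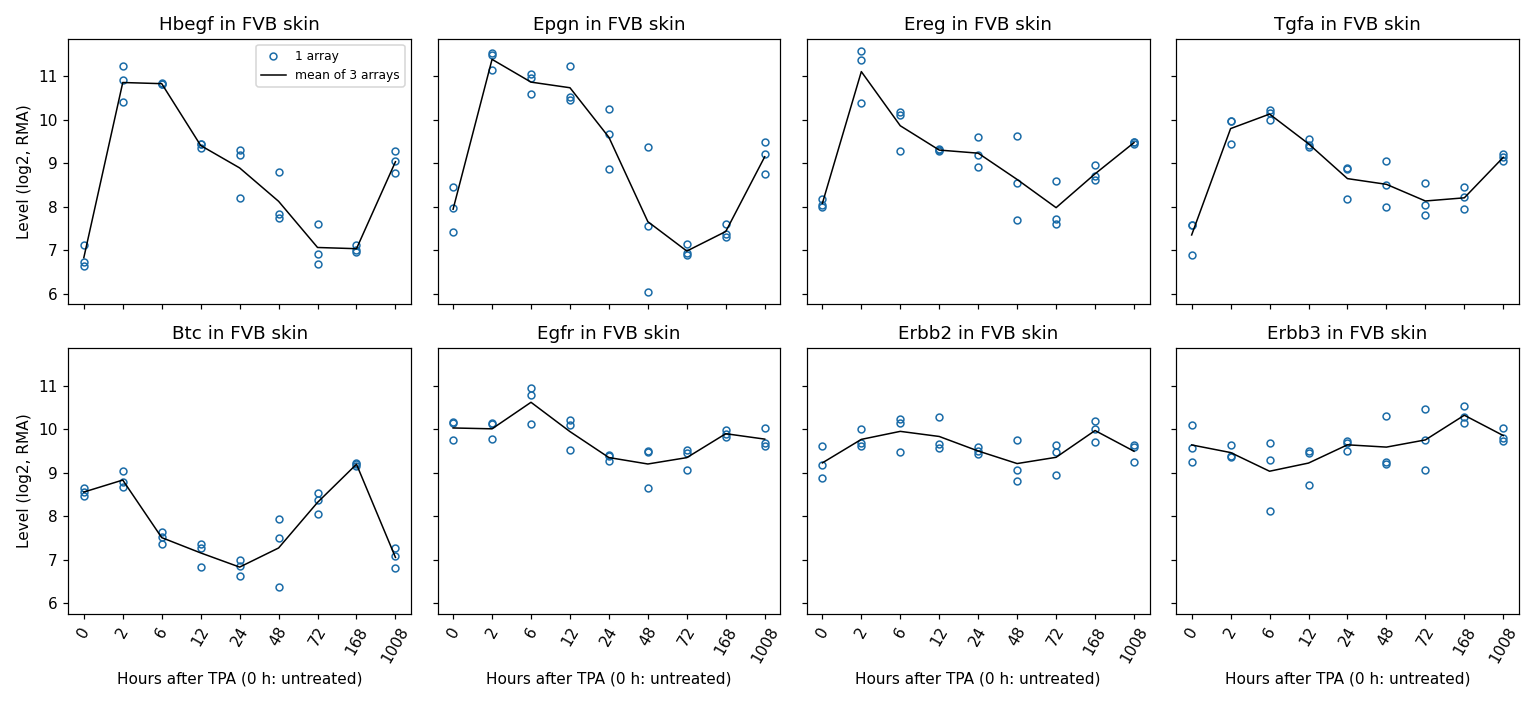
Levels (log2, RMA) of the 8 measured genes in FVB skin by hours after TPA, with 1 circle per array and a line through the mean of 3 arrays. Hbegf, Epgn, Ereg and Tgfa stand above their 0 h arrays from 2 to 24 h, Btc stands below from 6 to 48 h and again at 1008 h, and the 3 receptors stay within a narrower range.

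Hbegf encodes heparin-binding EGF-like growth factor, which is released early from injured keratinocytes. The 2 h arrays held 10.42, 11.24 and 10.92, and the 6 h arrays 10.85, 10.82 and 10.83, against 7.11, 6.74 and 6.64 in the 0 h arrays (log2). Every treated array of these times lay above every control. Hbegf rose 16.3-fold at 2 h, a log2 change of 4.03 ± 0.46 (SE, adjusted p = 1.41e-08), which ranked 13 of 18820 genes by size. It rose by 4.00 at 6 h, 2.58 at 12 h and 2.06 at 24 h. At 48 h the change was 1.30 (adjusted p = 0.055), and it was called without the 2 arrays of narrow range described with SPR (adjusted p = 0.00275, 6.83% of all genes). Levels at 72 and 168 h overlapped those of 0 h, with changes of 0.23 and 0.21. At 1008 h the arrays held 9.05, 8.78 and 9.28, all above the controls, a 4.62-fold rise (2.21 ± 0.46, adjusted p = 0.000597). Without 0 h replicates 2 and 3, which left 1 control, the 1008 h change was 1.93 and was not called.

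Epgn encodes epigen, a low-affinity EGFR ligand found in epithelia. Its 2 h arrays held 11.15, 11.49 and 11.53, against 7.41, 7.96 and 8.46 at 0 h. All treated arrays lay above all controls. The rise was 10.9-fold at 2 h (3.45 ± 0.61, adjusted p = 6.6e-05), with log2 changes of 2.92 at 6 h and 2.79 at 12 h, both called. At 24 h the change was 1.65 (adjusted p = 0.0644), and it was called without the narrow arrays (adjusted p = 0.0159, 5.92% of all genes). The 48 h arrays ranged from 6.04 to 9.37, the widest spread of any FVB group of this gene, and the mean change there was -0.29. The lowest was replicate 1, whose macrophage marker score was also the highest of the 3 arrays. Later changes were -0.96 at 72 h, -0.51 at 168 h and 1.21 at 1008 h (adjusted p = 0.413, 0.748 and 0.177).

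Ereg encodes epiregulin, a ligand of EGFR and ErbB4. The 2 h arrays held 10.38, 11.58 and 11.37, against 8.00, 8.05 and 8.19 at 0 h. All treated arrays were higher, and replicate 1 stood below the other two. Ereg rose 8.16-fold at 2 h (3.03 ± 0.40, adjusted p = 3.56e-07), and its log2 change at 6 h was 1.78. Between 2 and 6 h the level fell by 1.25 (adjusted p = 0.0474), a call lost in 5 of the 6 fits that left out an array of either time. The changes at 12 h (1.22, adjusted p = 0.023) and 24 h (1.15, adjusted p = 0.0488) were lost in 4 of 6 and 5 of 6 fits that left out 1 array (adjusted p up to 0.0647 and 0.194). At 1008 h the 3 arrays lay between 9.44 and 9.50, above every control (1.40 ± 0.40, adjusted p = 0.0119). Without 0 h replicates 2 and 3, which left 1 control, that change was 1.47 and was not called.

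Tgfa encodes TGF-alpha, a keratinocyte growth factor that acts on the cells that make it. Its highest FVB mean came at 6 h rather than 2 h, although the change between these times was not called (0.33, adjusted p = 0.623). The 2 h arrays held 9.44, 9.97 and 9.98 and the 6 h arrays 10.17, 10.23 and 10.00, against 7.58, 7.59 and 6.89 at 0 h. Both treated groups lay wholly above the controls. The rise was 5.45-fold at 2 h (2.45 ± 0.34, adjusted p = 9.8e-07) and 6.86-fold at 6 h (2.78 ± 0.34, adjusted p = 4.19e-08). It remained called at 12, 24 and 48 h, with log2 changes of 2.10, 1.30 and 1.16. The calls at 24 and 48 h were each lost in 3 of 6 fits that left out 1 array, among them that without 0 h replicate 3 (1.06, adjusted p = 0.0622, and 0.93, adjusted p = 0.116). The change at 1008 h was 1.78 (adjusted p = 0.000176), with 3 arrays between 9.06 and 9.21.

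Btc encodes betacellulin, a ligand of EGFR and ErbB4, and was lower from 6 to 48 h and at 1008 h. At 2 h the arrays held 9.03, 8.80 and 8.68, slightly above the 8.65, 8.47 and 8.56 of 0 h, without a call (0.28, adjusted p = 0.612). At 24 h they held 7.01, 6.63 and 6.87, all below the controls. The level fell by 1.05 at 6 h (adjusted p = 0.00706), 1.40 at 12 h, 1.73 ± 0.30 at 24 h (adjusted p = 0.000104) and 1.29 at 48 h. The 24 h level was 3.31-fold lower than at 0 h. The call at 6 h was lost without 6 h replicate 3 (-0.98, under the fold threshold), and that at 48 h without 48 h replicate 1 (-0.84, adjusted p = 0.0603). At 168 h the 3 arrays lay between 9.16 and 9.24, above all controls, but the change of 0.64 was not called (adjusted p = 0.306). At 1008 h the arrays held 6.81, 7.09 and 7.27, a level 2.83-fold lower than at 0 h (-1.5 ± 0.30, adjusted p = 0.000276).

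Tests between neighbouring FVB times place these movements. Between 2 and 6 h, Btc (-1.32, adjusted p = 0.00319) and Ereg were called, against 3.38% of all genes. Between 168 and 1008 h, Btc fell by 2.14 ± 0.30 (adjusted p = 1.76e-06) and Hbegf rose by 2.00 ± 0.46 (adjusted p = 0.00227), against 6.07%. No other step was called for any of the 8 genes with all arrays. Background shares for the steps from 6 to 12, 12 to 24, 24 to 48, 48 to 72 and 72 to 168 h were 1.48%, 1.10%, 0.43%, 0.717% and 0.00531%. With the narrow arrays left out, 9 steps were called in place of 4. The added ones were Hbegf from 6 to 12 h (-1.42) and from 48 to 72 h (-1.06), Epgn from 24 to 48 h (-1.94) and from 168 to 1008 h (1.72), and Btc from 48 to 72 h (1.05). Background shares in that fit were 2.13%, 1.37%, 2.47% and 6.39% for the steps from 6 to 12, 24 to 48, 48 to 72 and 168 to 1008 h.

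By mean level in FVB, Hbegf was highest at 2 and 6 h, whose arrays overlapped, followed by 12 h, then by 1008, 24 and 48 h. The arrays of 1008 h overlapped those of 24 h, and those of 24 h overlapped those of 48 h, which did not overlap those of 72 h. The arrays of 72, 168 and 0 h overlapped at the bottom. Epgn was highest at 2 h, with no overlap with 6 h, and its 72 h mean was the lowest. For Btc, 168, 2 and 0 h were at the top and 24 h at the bottom.

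No receptor was called at any FVB time, against 24.3% of all genes called at any FVB time. With so few receptors, a count of none cannot show whether they differ from other genes. Egfr is the receptor that binds all 5 measured ligands. Its 6 h arrays held 10.95, 10.79 and 10.14, its 24 h arrays 9.41, 9.38 and 9.27 and its 48 h arrays 9.50, 9.47 and 8.64, against 10.15, 10.18 and 9.77 at 0 h. The 24 and 48 h arrays all lay below the controls, and the 6 h arrays overlapped them. The changes were 0.59 at 6 h, -0.68 at 24 h and -0.83 at 48 h (adjusted p = 0.197, 0.165 and 0.0803). With the narrow arrays left out, Egfr passed the p threshold at 6, 24, 48 and 72 h (adjusted p = 0.0154, 0.0078, 0.00148 and 0.0149) but not the fold threshold. The moderated F test over all FVB times passed for Egfr (adjusted p = 0.00653) and for the 5 ligands, 6 of 8 genes, against 50.9% of all genes.

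Erbb2, the partner receptor without a ligand, ranged from 8.81 to 10.28 over the FVB arrays. Its largest FVB changes were 0.74 at 168 h and 0.72 at 6 h (adjusted p = 0.229 and 0.0707). Erbb3, which binds neuregulins, ranged from 8.12 to 10.54, with changes of -0.60 at 6 h and 0.68 at 168 h (adjusted p = 0.323 and 0.456). Neither passed the F test over FVB times with all arrays (adjusted p = 0.114 and 0.228). Without the narrow arrays both did (adjusted p = 0.00329 and 0.0111), while 66.7% of all genes then passed. No single time was called for either receptor in FVB in that fit.

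Several markers of other tissues and cells moved with these groups. Replicates 2 and 3 of FVB at 0 h had scores of 2.13 and 2.60 for 12 transcripts made by hepatocytes, against -0.58 in replicate 1 (mean log2 deviation from each gene's mean). Erbb3 in the same arrays was 9.58 and 9.24, against 10.11 in replicate 1. Treated arrays also had high hepatocyte scores, among them FVB 12 h replicate 1 (2.99), FVB 24 h replicate 1 (2.05) and F1 24 h replicate 1 (3.01). Erbb3 was not low in these arrays within their groups. It was 9.46 in the FVB 12 h array, against 9.49 and 8.73 in the others of that time. In the FVB 24 h array it was 9.74, against 9.69 and 9.51, and in the F1 24 h array 10.29, against 9.94. Pancreatic acinar transcripts scored 3.73 in FVB 6 h replicate 3, which held the lowest FVB value of Erbb3 (8.12), and 1.94 in FVB 0 h replicate 3. That 6 h array also scored -0.28 for basal keratinocyte, -1.03 for suprabasal keratinocyte, -0.94 for hair follicle and 2.13 for T lymphocyte markers. The other 6 h arrays scored 0.39 and 0.26, -0.06 and -0.13, -0.31 and -0.32, and -0.24 and -0.47. Without replicates 2 and 3 of FVB at 0 h, 1 control remained, assumed to vary like the other groups. For 2, 6 and 12 h in that fit the share of all genes is not given. Hbegf at 2 h was then 3.75 higher, and the counts of called genes were 1 at 24 h (3.27% of all genes), 0 at 48 h (1.2%) and 2 at 1008 h (5.64%), with 4 at 2, 6 and 12 h. Neutrophil markers were higher at times when ligands were: of 7 markers, 3, 7, 6 and 5 were called at 2, 6, 12 and 24 h, and 4 were called at 1008 h. The shares of all genes called in either direction at these times were 6.68%, 12.3%, 10.4%, 5.48% and 8.14%. The neutrophil score was 0.71 to 1.86 in the 6 h arrays and 0.68 to 1.39 in the 1008 h arrays, against -1.78 to -1.61 at 0 h. In the 2 h arrays, where Hbegf, Epgn and Ereg had their highest means, it was -1.39, 0.76 and -0.21. At 48 h it was 0.20, 0.58 and -0.39, while the mean of Epgn was 7.66, against 7.95 at 0 h. Sebaceous gland markers had scores of -0.66 to -0.23 at 24 h and -0.35 to -0.20 at 1008 h, where Btc was low, against 0.56 to 0.96 at 0 h. At those times 3 and 2 of the 6 were called lower, with 1 called higher at 1008 h (5.48% and 8.14% of all genes in either direction). Sebaceous scores were also below the 0 h range at 72 h (-0.36 to 0.21) and 168 h (-0.14 to 0.39). There Btc was not low, with means of 8.32 and 9.20, against 8.56 at 0 h. Macrophage scores were 2.77, 0.12 and -0.02 in the 48 h arrays, against -0.42 to -0.15 at 0 h, and 3 of the 7 markers were called higher (3.1% of all genes). Replicate 1 of 48 h also had scores of 2.17 for adipocyte and 1.28 for fibroblast markers, against ranges of -0.72 to 0.25 and 0.04 to 0.93 at 0 h, while replicate 3 had 1.92 and -1.40. The part of these cells in the results was not tested.

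F1 skin showed the same ligands higher at 4 and 6 h. Hbegf held 10.76 and 10.78 at 4 h, against 7.31, 6.20, 6.94 and 6.27 at 0 h, a 17.1-fold rise (4.10 ± 0.49, adjusted p = 3.38e-08). Epgn held 11.32 and 11.52 at 4 h, against 8.00, 7.83, 8.45 and 7.83 (3.39 ± 0.65, adjusted p = 0.000119). Ereg held 10.86 and 11.38, against 8.40, 8.45, 9.02 and 7.98 (2.66 ± 0.43, adjusted p = 8.79e-06). In each case both treated arrays lay above all 4 controls. Tgfa rose 3.99-fold at 4 h (2.00 ± 0.36, adjusted p = 5.65e-05). The single F1 array of 2 h held 9.26 for Hbegf, 11.05 for Epgn, 10.20 for Ereg and 8.82 for Tgfa, and was not tested.

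At 4 h, 4 of 8 genes were called in F1, all higher (10.5% of all genes, 5.46% higher), and at 6 h, 5 (10.4%). Without 6 h replicate 2, 2 of the 5 remained, and the losses were Epgn, Ereg and Tgfa (adjusted p = 0.142, 0.214 and 0.0723). At 12 h (4.94%), 24 h (1.89%) and 48 h (1.39%), 2 were called, Hbegf higher and Btc lower each time. None was called at 72 h (1.99%), where 1 had an unadjusted p under 0.05, or at 1008 h (0.802%), where it was 3. Hbegf was higher by 2.19 at 12 h, 1.72 at 24 h and 1.63 at 48 h (adjusted p = 0.00251, 0.0448 and 0.0326). The call at 24 h was lost in 5 of 6 fits that left out 1 array (1.30 and adjusted p = 0.508 without 24 h replicate 2) and in 5 of 13 other alternatives. At 48 h it was lost in 5 of 7 such fits (1.18 and 0.399 without 48 h replicate 3) and in 5 of 13, and at 12 h without 12 h replicate 2 (0.0642). Btc held 6.67 and 6.27 at 24 h, against 8.38, 9.43, 8.75 and 9.03 at 0 h, a level 5.37-fold lower (-2.42 ± 0.32, adjusted p = 1.06e-05). Its log2 changes were -1.80 at 6 h, -2.28 at 12 h and -1.39 at 48 h, all called. The 6 F1 arrays of 1008 h ran from 7.44 to 8.48 for Hbegf (median 7.75), all above the 4 controls, with a change of 1.13 (adjusted p = 0.126). It was called without the narrow arrays (adjusted p = 0.00557, 1.03% of all genes).

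F1 arrays came from batches 2 and 3 of the labels, and the untreated levels differed between them. Hbegf at 0 h was 7.31 and 6.94 in batch 2 and 6.20 and 6.27 in batch 3, and Tgfa was 8.67 and 8.52 in batch 2 and 7.82 and 7.77 in batch 3. Btc was lower in batch 2, with 8.38 and 8.75, than in batch 3, with 9.43 and 9.03. Within batch 2, Hbegf was 3.64 higher at 4 h and 3.15 higher at 6 h, and within batch 3 it was 4.55 and 4.75. Tgfa was 1.64 and 1.20 higher at these times within batch 2, and 2.35 and 2.47 within batch 3. At 4 h Epgn was 3.10 higher within batch 2 and 3.69 within batch 3, and Ereg 2.15 and 3.16. At 1008 h Hbegf was 0.61 higher within batch 2 and 1.89 within batch 3. All these values have the same sign in both batches. Btc at 24 h was -2.29 within batch 2 and -2.55 within batch 3. Batch 2 alone, which keeps the narrow arrays, gave no call at any F1 time in limma (Hbegf at 4 h had an adjusted p of 0.0964). Of all genes it called 0.866% at 4 h, 0.755% at 6 h, 0.0319% at 12 h, 0.00531% at 24 h and 0% later. Batch 3 alone called 6, 6, 4, 2, 1 and 3 of the 8 genes at 4, 6, 12, 24, 48 and 1008 h, against 17.4%, 18.3%, 8.61%, 6.8%, 2.49% and 5.1% of all genes. Each batch held 1 array of most times, which was then assumed to vary like the other groups.

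**Figure D2:**
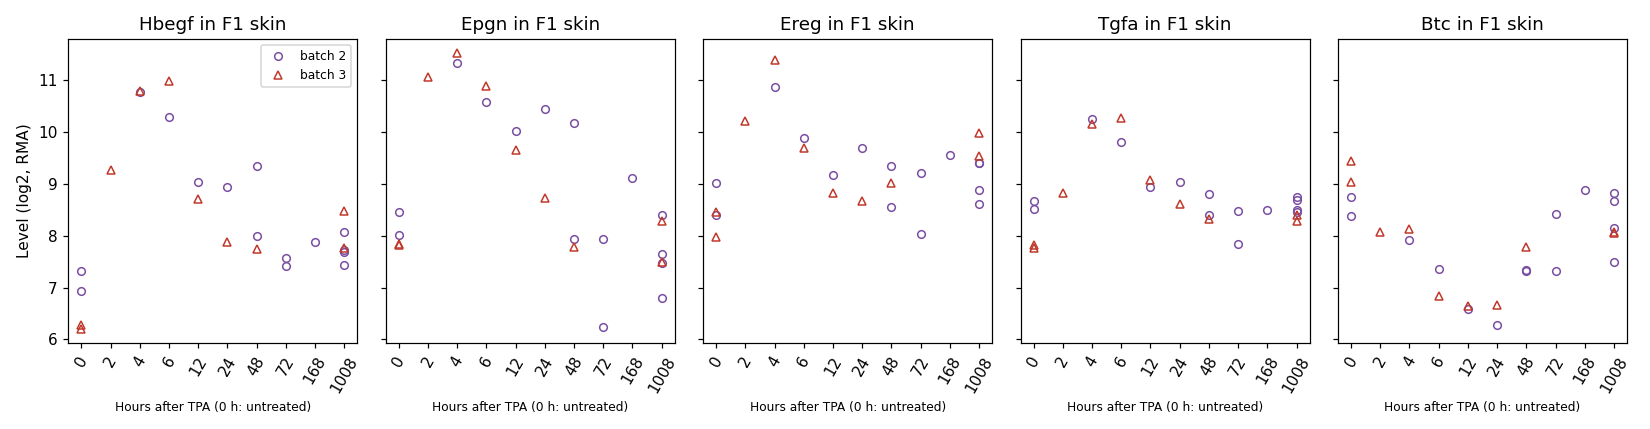
Levels (log2, RMA) of the 5 measured ligands in F1 skin by hours after TPA, with circles for arrays of batch 2 and triangles for batch 3. Both batches show Hbegf, Epgn, Ereg and Tgfa high at 4 and 6 h and Btc low from 6 to 24 h, and at 0 h the batch 3 arrays lie below those of batch 2 for Hbegf and Tgfa.

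Among the receptors in F1, none was called at any time with all arrays. Erbb3 held 9.47 and 8.60 at 4 h and 9.40 and 8.77 at 6 h, all below the 0 h range of 9.91 to 10.11, with changes of -0.94 and -0.89 (adjusted p = 0.137 and 0.168). Within batch 3 these were called, with -1.43 and -1.26 (adjusted p = 0.00386 and 0.00478), and within batch 2 they were -0.45 and -0.52 (adjusted p = 1 for both). In FVB the 6 h arrays of Erbb3 overlapped the controls. Egfr held 10.12 and 10.09 at 4 h and 10.12 and 10.39 at 6 h, against 9.46 to 10.03 at 0 h. All 4 values lay above the controls, with changes of 0.34 and 0.48 (adjusted p = 0.587 and 0.389). The F test over F1 times passed for the 5 ligands and for no receptor, against 26.7% of all genes. Erbb3 passed as well without the narrow arrays (adjusted p = 0.0222, with 35% of all genes).

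SPR skin had 2 arrays a time, and 1 of them needs naming first. Replicate 1 of SPR at 12 h had an interquartile range of log2 values of 1.63 and replicate 2 of F1 at 72 h had 2.47, against 3.32 to 3.72 in the other arrays. At 12 h the narrow SPR array held 5.85 for Hbegf, 7.14 for Egfr and 6.33 for Erbb3, while replicate 2 held 9.73, 9.94 and 9.64. The controls held 7.10 and 7.03 for Hbegf, 9.91 and 9.96 for Egfr and 9.81 and 9.77 for Erbb3. With all arrays, Egfr (-1.40), Erbb3 (-1.80) and Btc (-2.14) were called lower at 12 h, against 18.4% of all genes, with 15.3% called lower. In the fit without it and the F1 array, Egfr was at 0.00 and Erbb3 at -0.14, neither called, and 1 SPR array of 12 h remained, assumed to vary like the other groups. There Hbegf was 2.66 higher and Btc 1.79 lower (adjusted p = 0.0021 and 0.0181), against 1.04%.

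At 4 h in SPR, Hbegf held 10.89 and 10.96, against 7.10 and 7.03 at 0 h, a 14.5-fold rise (3.86 ± 0.57, adjusted p = 9.83e-06). Tgfa held 10.39 and 10.29, against 8.32 and 8.35 (2.01 ± 0.42, adjusted p = 0.00115), and Ereg 10.22 and 9.82, against 8.28 and 8.48 (1.64 ± 0.49, adjusted p = 0.0295). The call for Ereg was lost in all 4 fits that left out 1 array (adjusted p = 0.0912 to 0.23) and in 5 of 12 other alternatives. For Hbegf, Tgfa, Ereg and Epgn, both treated arrays lay above both controls, which with 2 arrays a group can also happen by chance. Epgn held 10.54 and 10.22, against 8.01 and 8.28, and its change of 2.23 was not called (adjusted p = 0.0589, and 0.0139 without the narrow arrays, where 6.21% of all genes were called). Thus 3 of 8 genes were called at 4 h, all higher, against 5.27% of all genes, with 2.57% higher. At 24 and 48 h none was called (0.26% and 0.207% of all genes), with 2 and 1 at an unadjusted p under 0.05. Leaving out the narrow arrays, Hbegf was called at both times (2.24 and 2.18, adjusted p = 0.00226 and 0.00503) and Btc at 24 h (-1.40, adjusted p = 0.0343), against 0.749% and 0.526%. At 1008 h none was called (0% of all genes, and none of the 8 at an unadjusted p under 0.05), and Epgn held 7.91 and 5.53. Both controls were in batch 2, while the 24 and 1008 h groups held 1 array of each batch. Over all SPR times the F test passed for 7 of 8 genes (35.3% of all genes), and for 5 without the narrow arrays (13.5%). The single SPR arrays of 2 and 6 h held 10.42 and 10.57 for Hbegf and 10.76 and 10.63 for Epgn.

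**Figure D3:**
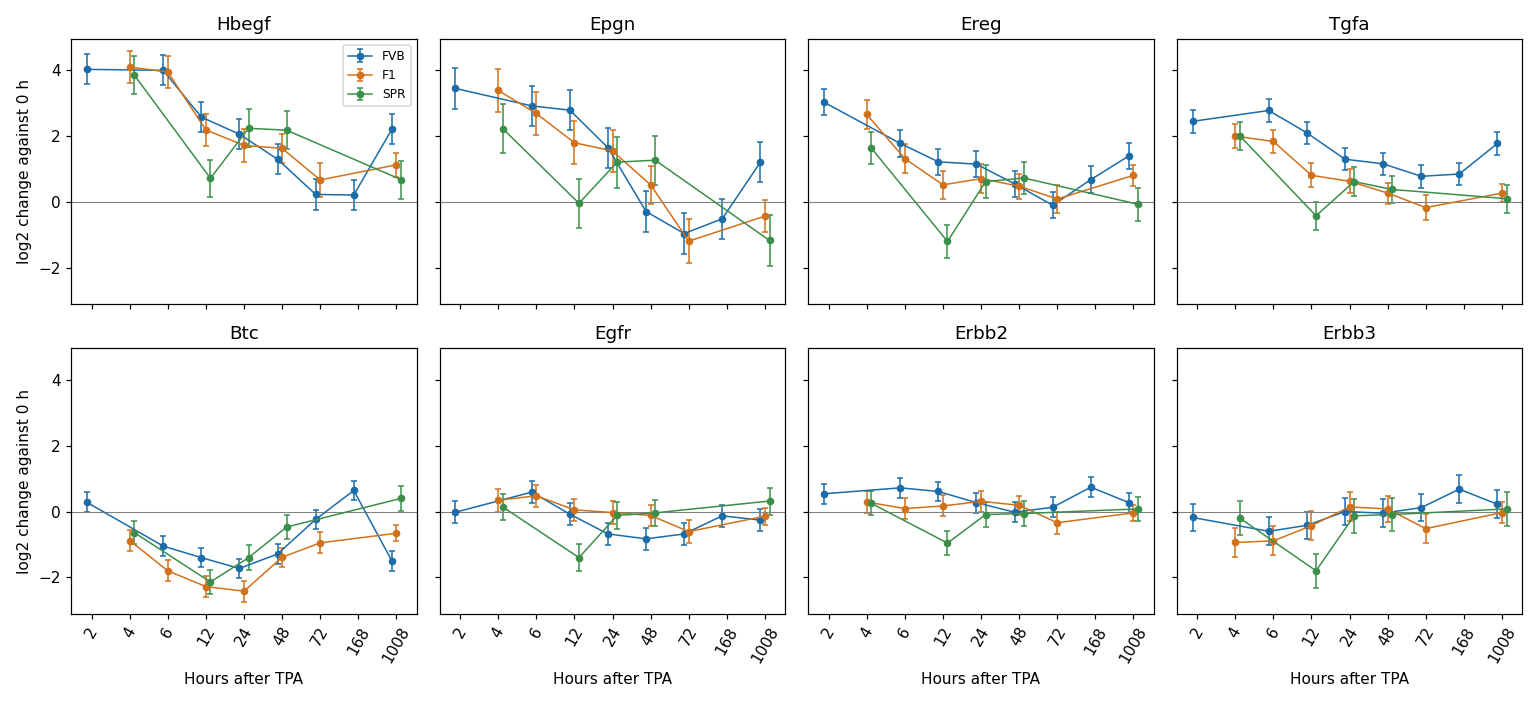
Log2 change against 0 h of the same strain (points, with SE of the fit as bars) for the 8 measured genes by hours after TPA in FVB, F1 and SPR skin. Hbegf lies near 4 in FVB at 2 and 6 h and in F1 and SPR at 4 h, the SPR points of 12 h include the narrow array, and at 1008 h FVB stands above F1 and SPR for Hbegf, Epgn, Ereg and Tgfa and below them for Btc.

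The strains were compared by the difference of their changes, since all FVB arrays form batch 1 and levels across batches were not compared. Without the narrow arrays, genes that vary most had 0.652 times as much spread in batch 2 as in batch 1, and how this bears on the differences was not tested. With the narrow arrays it was 0.97 times as much. No gene of the 8 differed in its change between F1 and FVB at a single time. At 6 h the difference for Hbegf was -0.05 ± 0.68 and for Epgn -0.23 ± 0.89, and these errors leave room for differences above 1. Background shares of the 6 times from 6 to 1008 h were 0%, 0%, 0.0106%, 0.0691%, 0.361% and 1.41%. An unadjusted p under 0.05 was found for 2 genes at 12 h and 3 at 1008 h. The smallest adjusted p was that of Tgfa at 1008 h, with -1.52 ± 0.44 (adjusted p = 0.0651, and 0.000872 without the narrow arrays, with 3.32% of all genes called). The F test over times differed between F1 and FVB for Btc (adjusted p = 0.0468), 1 of 8 genes against 1.88% of all genes, and without the narrow arrays for Btc and Tgfa (adjusted p = 0.0236 and 0.0151, with 5.41%).

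Between SPR and FVB, Btc at 1008 h differed by 1.90 ± 0.48 (adjusted p = 0.0246), against 1.40% of all genes. This call was lost under median centring (adjusted p = 0.0802), without replicates 2 and 3 of FVB at 0 h (0.0983), and in 6 of 10 fits that left out 1 array, among them each fit without an SPR array of either time (up to 0.195). It held 8.76 and 9.30 in SPR at 1008 h, against 8.62 and 8.50 at 0 h, while in FVB all 3 arrays of 1008 h lay below the controls. In the fit without the narrow arrays Tgfa at 1008 h differed too, by -1.69 (adjusted p = 0.00225), against 5.98%. The 4 genes that differed at 12 h, Epgn (-2.83), Ereg (-2.42), Tgfa (-2.51) and Erbb2 (-1.57), against 17.2%, did so with the narrow array, and none was called without it (0.085%). None differed at 24 or 48 h (0.0106% and 0.143%). The F test over times of the SPR minus FVB difference passed for 7 of 8 genes (20.5%), and for Hbegf, Epgn, Tgfa and Btc without the narrow arrays (5.87%). Between SPR and F1 none of the 8 was called at any time by limma, where the share of all genes called was 0.00531% at 4 h, 5.9% at 12 h and 0% for each later time. An unadjusted p under 0.05 was found for 5 of them at 12 h and 1 at 24 and 1008 h. None passed the F test either (0.0106% of all genes, and 0% without the narrow arrays). At 4 h the difference was -0.24 ± 0.75 for Hbegf and 0.01 ± 0.55 for Tgfa.

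Across arrays the 4 early ligands ran together. Over the 27 FVB arrays, Pearson's r was 0.940 between Hbegf and Tgfa, 0.903 between Hbegf and Epgn and 0.878 between Hbegf and Ereg, and over the 25 F1 arrays it was 0.925, 0.842 and 0.785. Btc had r = -0.292 with Hbegf in FVB and -0.528 in F1. Hbegf and Egfr had r = 0.453 and 0.557. These arrays share the time course and, in F1, the batches, and the values describe it. Of all other genes, Bcl3 ran most like Hbegf (r = 0.976 in FVB and 0.969 in F1), followed by Slc41a1 (0.971 and 0.918) and Slc5a8 (0.958 and 0.915). The nearest gene was Mphosph10 for Epgn (0.964 and 0.851), Noct for Ereg (0.940 and 0.765), Tgm1 for Tgfa (0.977 and 0.852) and Kif21a for Btc (0.912 and 0.781). For the receptors it was Efna5 for Egfr (0.874 and 0.869), Cep170b for Erbb2 (0.882 and 0.712) and Tspan9 for Erbb3 (0.908 and 0.852).

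Epgn, Ereg, Areg and Btc follow each other on chromosome 5, with Cxcl2 and Mthfd2l on one side and Parm1 on the other. At 2 h in FVB the chemokine gene Cxcl2 rose by 5.78 ± 0.57 (adjusted p = 2.42e-10), while Mthfd2l was at 0.19 and Parm1 at -0.08 (adjusted p = 0.593 and 0.922). At 24 h Btc fell by 1.73, while Parm1 was at 0.47 (adjusted p = 0.399). Called and uncalled genes lay side by side on this stretch at 2 h, with Epgn and Ereg called and Mthfd2l, Btc and Parm1 not.

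Of other ErbB ligands and Erbb4, 6 genes were measured and 2 were called at any FVB time, against 24.3% of all genes called at any FVB time. Nrg1, a neuregulin that binds ErbB3 and ErbB4, rose by 2.54 ± 0.27 at 6 h (adjusted p = 1.58e-09) and by 1.57 at 1008 h, and it was also higher at 4 h in F1 (2.13) and SPR (1.57). Nrg4 fell by 1.15 at 6 h (adjusted p = 0.000164). Of 10 sheddases and their regulators, 4 were called at any FVB time, beside the same 24.3%. Adam8 rose by 2.74, Adam17, the main sheddase of EGFR ligands, by 1.46 and its partner Rhbdf2 by 1.10, all at 6 h. Timp3, an inhibitor of Adam17, fell by 1.86 at 12 h. At 6 h, 3 of the 10 were higher and none lower, against 12.3% of all genes in either direction and 6.45% higher, with a median of 0.46 against 0.00 for all genes. In SPR at 4 h, Adam8 was called (1.66, limma adjusted p = 0.0189), while Adam17 (0.38) and Rhbdf2 (0.92) were not (adjusted p = 0.865 and 0.0613).

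Of 12 inhibitors of ErbB receptors, 6 were called at any FVB time, against 24.3% of all genes. Lrig3 and Lrig1, of a family of membrane proteins known for Lrig1 lowering ErbB receptors, fell by 2.31 and 1.72 at 2 h (adjusted p = 1.4e-06 and 0.000251). They were also lower at 4 h in F1 (-2.49 and -1.46) and SPR (-2.17 and -1.42). The phosphatase gene Ptprj rose by 1.57 at 6 h and Socs5 by 1.39 at 12 h. At 2 h, 3 were higher and 2 lower (6.68% of all genes in either direction), with a median of -0.07. Of 17 adaptors and kinases downstream of EGFR, 7 were called at any FVB time, against 24.3%. Map2k1, the kinase MEK1, rose by 1.80 at 6 h, Stat3 by 1.68 at 6 h and the adaptor Shc1 by 1.43 at 1008 h, while Pik3r1, the regulatory subunit of PI3 kinase, fell by 1.80 at 24 h. At 6 h, 3 were higher and 3 lower, against 12.3% of all genes in either direction.

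Of 13 genes that respond to ERK, the kinase at the end of the pathway, 8 were called at any FVB time, against 24.3% of all genes. At 2 h, 7 were higher and none lower, against 3.6% of all genes called higher, with a median log2 change of 1.01 against 0.02 for all genes. Dusp6, a phosphatase that switches ERK off, rose by 3.50 ± 0.31 (adjusted p = 9.57e-12), Phlda1 by 2.67, Ier3 by 2.31 and the transcription factor gene Egr1 by 2.16, all at 2 h. The number of higher genes was 6, 5, 2 and 1 at 6, 12, 24 and 48 h, against 6.45%, 5.46%, 2.85% and 3.1% of all genes, and none was called at 72 or 168 h (limma). At 1008 h, where 3 ligands were called higher with all controls, 1 ERK response gene was called, Ier3 (1.02, adjusted p = 0.000793), against 8.14% of all genes. Dusp6 was at 0.85 and Phlda1 at 0.62 (adjusted p = 0.0479 and 0.057), under the fold or the p threshold.

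**Figure D4:**
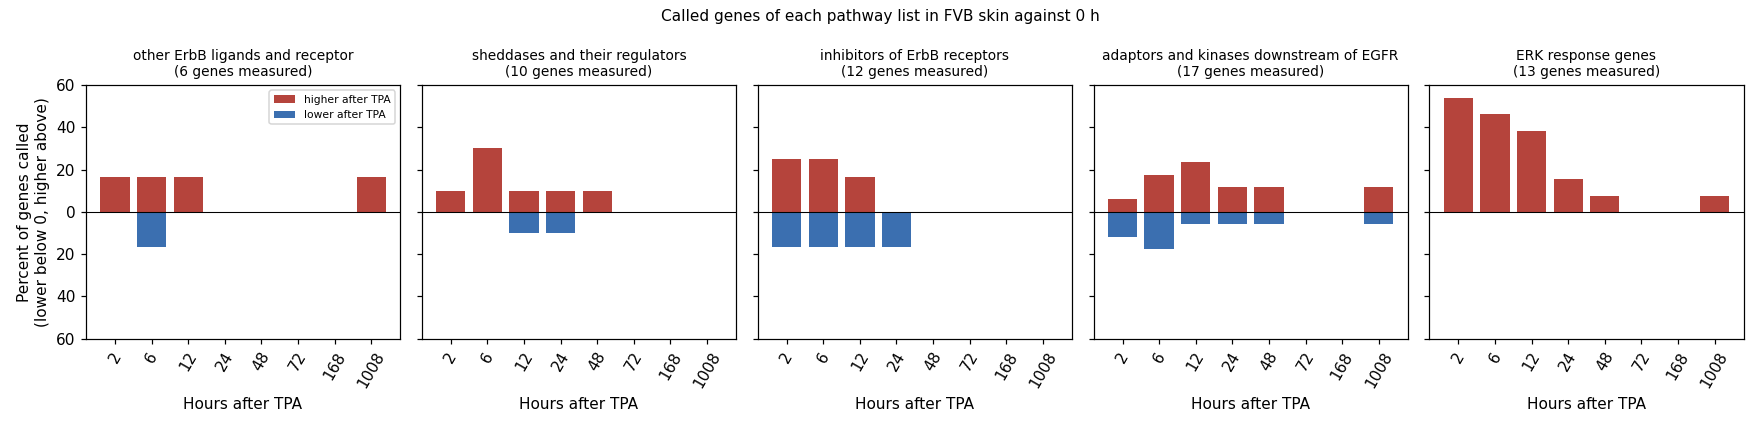
Percent of the measured genes of each pathway list that were called in FVB skin against 0 h, by hours after TPA, with higher genes above 0 and lower genes below. The ERK response genes are called higher mostly at 2 to 12 h, and no list has a called gene at 72 or 168 h.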

How the data were processed

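The deposited table holds log2 expression values per probe set, made by the authors with RMA, per the submitters' processing notes (version not given). Whether batches were adjusted beforehand is not stated in the notes or labels. Gene means over the 69 arrays differed little between batches. The SD over genes of the difference was 0.0402 for batches 1 and 2, 0.0401 for 1 and 3 and 0.0389 for 2 and 3. What this means for the F1 values by batch and for the strain differences was not tested. Probe sets with 1 symbol (21218 of 35556; 1881 had several, 12457 none listed) were reduced to the highest mean per gene, leaving 18820 genes. A limma 3.58.1 model (R 4.3.3) of 27 strain and time groups, with a term for batch 3 against batch 2, was fitted across all genes on 66 arrays (38 residual degrees of freedom). Adjusted p-values are Benjamini-Hochberg over all genes, and errors are SE of the fit. The number of arrays limits precision. The procedure was tested on simulated data. The genes and lists were chosen with earlier results of these data known. Named genes are all members, up to 4 genes per pathway list with the largest called FVB change, and the genes with the highest correlation to each member. Alternatives changed scaling, filters, batch handling and arrays. Areg was not analysed here, and 3 arrays that the labels put in no group entered no comparison.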

Additional observations from a re-analysis of the deposited data

Results flagged for a closer look

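The change after TPA differed between SPR and FVB at 12 h for Epgn (-2.83), Ereg (-2.42), Tgfa (-2.51) and Erbb2 (-1.57 on the log2 scale), with limma adjusted p-values of 0.0356, 0.00862, 0.00316 and 0.0186. These values include the narrow SPR array, and none was called without it. At 1008 h the change of Btc differed by 1.90 (adjusted p = 0.0246, and 0.00544 without the narrow arrays). That call was lost under median centring (0.0802), without FVB 0 h replicates 2 and 3 (0.0983) and in 6 of 10 fits that left out 1 array (up to 0.195).

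Over all shared times, the moderated F of the F1 minus FVB difference was 4.72 for Btc. For the SPR minus FVB difference it was 5.10 for Hbegf, 6.85 for Epgn, 5.80 for Ereg, 6.54 for Tgfa, 8.55 for Btc, 5.46 for Egfr and 3.77 for Erbb2. Adjusted p-values ran from 0.0045 for Btc to 0.0495 for Erbb2. Without the narrow arrays, Ereg, Egfr and Erbb2 no longer passed.

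Of the 3 arrays in no group, each held some ligand levels at least 1 above the highest of the 6 untreated F1 and SPR arrays. That highest level was 7.31 for Hbegf, 8.45 for Epgn, 9.02 for Ereg and 8.67 for Tgfa. The array labelled 2 h held 9.20 for Hbegf and 10.72 for Epgn, while its 9.92 for Ereg and 9.41 for Tgfa were less than 1 above. The array labelled 6 h held 10.95 for Hbegf, 10.34 for Epgn and 10.15 for Tgfa, while its 9.06 for Ereg was less than 1 above. The array without a time held 10.49 for Hbegf, 10.65 for Epgn, 10.37 for Ereg and 9.76 for Tgfa.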

How the results depend on the processing

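Of the called changes against 0 h, 15 of 24 in FVB, 0 of 15 in F1 and 0 of 6 in SPR kept their call in every alternative run. These numbers are not comparable, since the strains did not share all alternatives. Batch 2 alone, which FVB could not have, called 0.866% of all genes or less at each F1 time and lost every F1 call. In all fits that left out 1 array, 18 calls in FVB, 9 in F1 and 3 in SPR were kept. The cause of the changes below was not tested. Where a count below has no number or share of all genes with it or above, it cannot be set against other genes. Without FVB controls 2 and 3, counts of called genes were 1 at 24 h, 0 at 48 h and 2 at 1008 h in FVB, 1 at 24 h in F1, and 2 for SPR minus FVB. Batch 2 alone gave 0 in F1 at 4, 6, 12, 24 and 48 h, 1 in SPR at 4 h and 0 in SPR at 12 h. Batch 3 alone gave 4, 1 and 3 in F1 at 12, 48 and 1008 h. Median centring gave 1 in F1 at 24 and 48 h, 5 in SPR at 12 h and 2 for SPR minus F1. Of all 18820 genes it called 225 higher and 93 lower in F1 at 24 h, and 202 and 43 at 48 h. In SPR at 12 h it called 185 higher and 3929 lower, and for SPR minus F1 at 12 h 71 and 2482. All probe sets together gave 1 in F1 at 24 and 48 h. Each strain alone gave 1 in F1 at 1008 h, 0 in SPR at 4 and 12 h and 9 between neighbouring FVB times. Cyclic loess gave 1 in F1 at 1008 h, 2 and 1 in SPR at 24 and 48 h, 8 between neighbouring FVB times, 1 for F1 minus FVB and 3 for SPR minus FVB. Of all 18820 genes it called 124 higher and 60 lower in F1 at 1008 h. In SPR it called 77 and 30 at 24 h, and 60 and 20 at 48 h. Without the narrow arrays the counts were 1 in F1 at 1008 h, 2 and 1 in SPR at 24 and 48 h, 9 between neighbouring times, 1 for F1 minus FVB and 2 for SPR minus FVB, and the F test passed 2 genes for F1 minus FVB and 4 for SPR minus FVB. Egfr in SPR at 12 h then turned to 0.00 (with 1 array left out at a time, -2.80 to 0.00).

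With the replicate number as a block, the replicate block gave 1 called gene in F1 at 24 and 48 h, and no other count moved by over 1.5 times. Same-numbered arrays had a median correlation of deviations of -0.033 in FVB, 0.021 in F1 and 0.019 in SPR. Single pairs ranged from -0.755 to 0.629, from -0.466 to 0.511 and from -0.21 to 0.396. Whether same-numbered arrays share more than a number cannot be told from these values.

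Leaving out 1 array at a time, the counts in FVB ranged from 4 to 4 at 2 h, 4 to 5 at 6 and 12 h, 2 (without 0 h replicate 3 or 24 h replicate 2 or 3) to 5 at 24 h, 1 to 2 at 48 h, 0 to 0 at 72 and 168 h and 4 to 4 at 1008 h. In F1 they ranged from 4 to 5 at 4 h, 2 (without 6 h replicate 2) to 5 at 6 h, 1 to 2 at 12, 24 and 48 h, 0 to 2 at 72 h and 0 to 0 at 1008 h. In SPR they were 2 to 2 at 4 h, 1 to 8 (without 12 h replicate 2, which leaves the narrow array alone) at 12 h and 0 to 0 later. They ranged from 3 to 6 between neighbouring times, 1 to 8 for SPR minus FVB, 0 to 7 for SPR minus F1 and 0 to 0 for F1 minus FVB. No other probe set of a member carried 1 symbol, so that alternative was not run.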
